A study of Mus musculus with 13 samples.

Results

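Id2, Id3 and Tcf12 were followed in 1449 single CD8+ T cells of 13 populations from mouse spleen. They are 3 of the 94 genes on a quantitative PCR panel, and each was read from the assay row that carries its name. Id2 and Id3 are inhibitor-of-DNA-binding proteins. They hold the helix-loop-helix fold but lack the basic stretch that touches DNA. They pair with E proteins, such as the product of Tcf12 (also called HEB), and so keep them off the E-box sequences they would bind. In CD8+ T cells Id2 is known to favour effector cells that carry KLRG1, and Id3 is known as a mark of cells able to form long-lived memory. E proteins are known to restrain effector genes and to act with the memory factor TCF-1. Other E and Id genes of a list of 6 on the panel were limited to Tcf3, which encodes the E2A proteins, so the panel measured 4 of them. Id1 and Id4 were not among the genes measured.

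All populations but the naive one answered Listeria monocytogenes expressing ovalbumin. The cells were OT-1 CD8+ T cells, whose transgenic receptor recognises an ovalbumin peptide. They carried CD45.1, so that they could be told from the CD45.2 cells of the C57BL/6J recipients. The populations were naive cells (day 0, 149 cells, not activated), first-division cells (FirstDiv, day 2, 144 cells), proximal daughters (Prox, day 2, 83 cells) and distal daughters (Distal, day 2, 48 cells). Unsorted responders came from day 3 (143 cells), day 5 (154 cells) and day 7 (134 cells). Memory precursors (Tmp) and short-lived effectors (Tsle) came from day 5 (90 and 79 cells) and day 7 (62 and 89 cells), and central memory (Tcm, 138 cells) and effector memory cells (Tem, 136 cells) from day 45. Recipients got 2000000 dye-labelled OT-1 cells for FirstDiv, 20000 for day 3 and 5000 for days 5, 7 and 45, so the number transferred and the time cannot be told apart between these sets. The infecting dose was 5000 colony-forming units where the labels give it, and neither number is given for naive, Prox or Distal cells.

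Each population was 1 sample, so without replicates nothing could be tested between populations and only sizes are described. The gates for the sorted populations, the number of mice and the array each cell was run on are not stated by the labels. A deposited value is on a log2 scale in PCR cycles and grows with the amount of transcript, and 0 stands for no detection. A gene counts as found in a cell at any value above 0. Shares are followed by their exact (Clopper-Pearson) 95% interval, which covers counting error only. A share of 0 is given with the share that 3 cells would make, as an approximate upper limit. The exact interval reaches further, for 0 of 144 FirstDiv cells to 2.53% in place of 2.08%. Differences of at least 20 percentage points were taken as large, a rule of size fixed with earlier results of these data known.

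Population medians of the number of assays above 0 ran between 11 in Tem and 19 in unsorted day 5 cells. Cd8a, the gene of a CD8 chain, was found in 27.3% to 65.1% of the cells of a population, and Ptprc, which encodes CD45, in 83.1% to 100%. Of genes of other T cells, Cd4 and Foxp3 were each above 0 in 2 cells and Gata3 in 53. The panel held no gene of the lists for B cells or myeloid cells. No 2 cells shared all their values (0 such cells).

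The assays on the array were Mm00711781_m1 for Id2, Mm01188138_g1 for Id3, Mm00441699_m1 for Tcf12 and Mm01175588_m1 for Tcf3. In the manufacturer's naming, an m1 probe spans an exon junction and a g1 assay may also detect genomic DNA.

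Id2 was a transcript of a few populations. It was found in 133 of the 1449 cells (9.18%, 7.74 to 10.8), mostly in day 5 Tmp, Tcm and Tem cells. Along time, Id2 was found in 3 of 149 naive cells (2.01%, 0.417 to 5.77) and in none of the FirstDiv (0 of 144, which allows a share of up to 2.08%), Prox (0 of 83, up to 3.61%) and Distal cells (0 of 48, up to 6.25%). It was also at 0 in the unsorted cells of day 3 (0 of 143, up to 2.10%) and day 5 (0 of 154, up to 1.95%). From naive cells to unsorted day 5 cells, Id2 was therefore near or below what this number of cells can show.

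The day 5 memory precursors stood apart. Id2 was found in none of the 79 day 5 Tsle cells (up to 3.80%), against 53 of the 90 day 5 Tmp cells (58.9%, 48.0 to 69.2), a difference of -58.9 percentage points (-69.2 to -47.1). Tmp cells were 56.9 points above naive cells (45.4 to 67.3). Over the panel, 2 of 94 genes were at least 20 points more frequent in day 5 Tmp cells than in both the Tsle and the unsorted cells of that day, Id2 and Tcf7. Id2 was in none of the unsorted cells of that day (0 of 154). Tcf7 encodes TCF-1 and was in 38.9% of Tmp cells, against 0% of Tsle and 13.6% of unsorted cells. Klrg1, a surface receptor of terminal effector cells, ran the other way, at 40.5% of Tsle cells, against 1.11% of Tmp cells, and whether it served as a gate is not stated.

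Day 7 did not show this pattern. Of the 134 unsorted cells of that day, 8 held Id2 (5.97%, 2.61 to 11.4). It was in 5 of 89 day 7 Tsle cells (5.62%, 1.85 to 12.6), against 1 of 62 day 7 Tmp cells (1.61%, 0.0408 to 8.66), a difference of 4.01 points (-3.99 to 11.2). The interval holds 0, and Id2 was rare in each of these populations.

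At day 45 Id2 was found in 28 of 136 Tem cells (20.6%, 14.1 to 28.4), against 35 of 138 Tcm cells (25.4%, 18.3 to 33.5). The difference of -4.77 points had an interval from -15.1 to 5.70. Tem cells were 18.6 points above naive cells (11.1 to 26.5), under the size rule, and Tcm cells were 23.3 points above them (15.4 to 31.6). The Tem difference from naive cells passed 20 points in earlier columns (26.5), in cells with at least 15 other assays (30) and in cells with 12 to 18 (20.1), and was 10.7 points in later columns. The value of 30 rests on 3 of 10 Tem cells (30%, 6.67 to 65.2), against 0 of 25 naive cells. Tcm cells were also 23.7 points above day 7 Tmp cells (13.8 to 32.01).

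**Figure D1:**
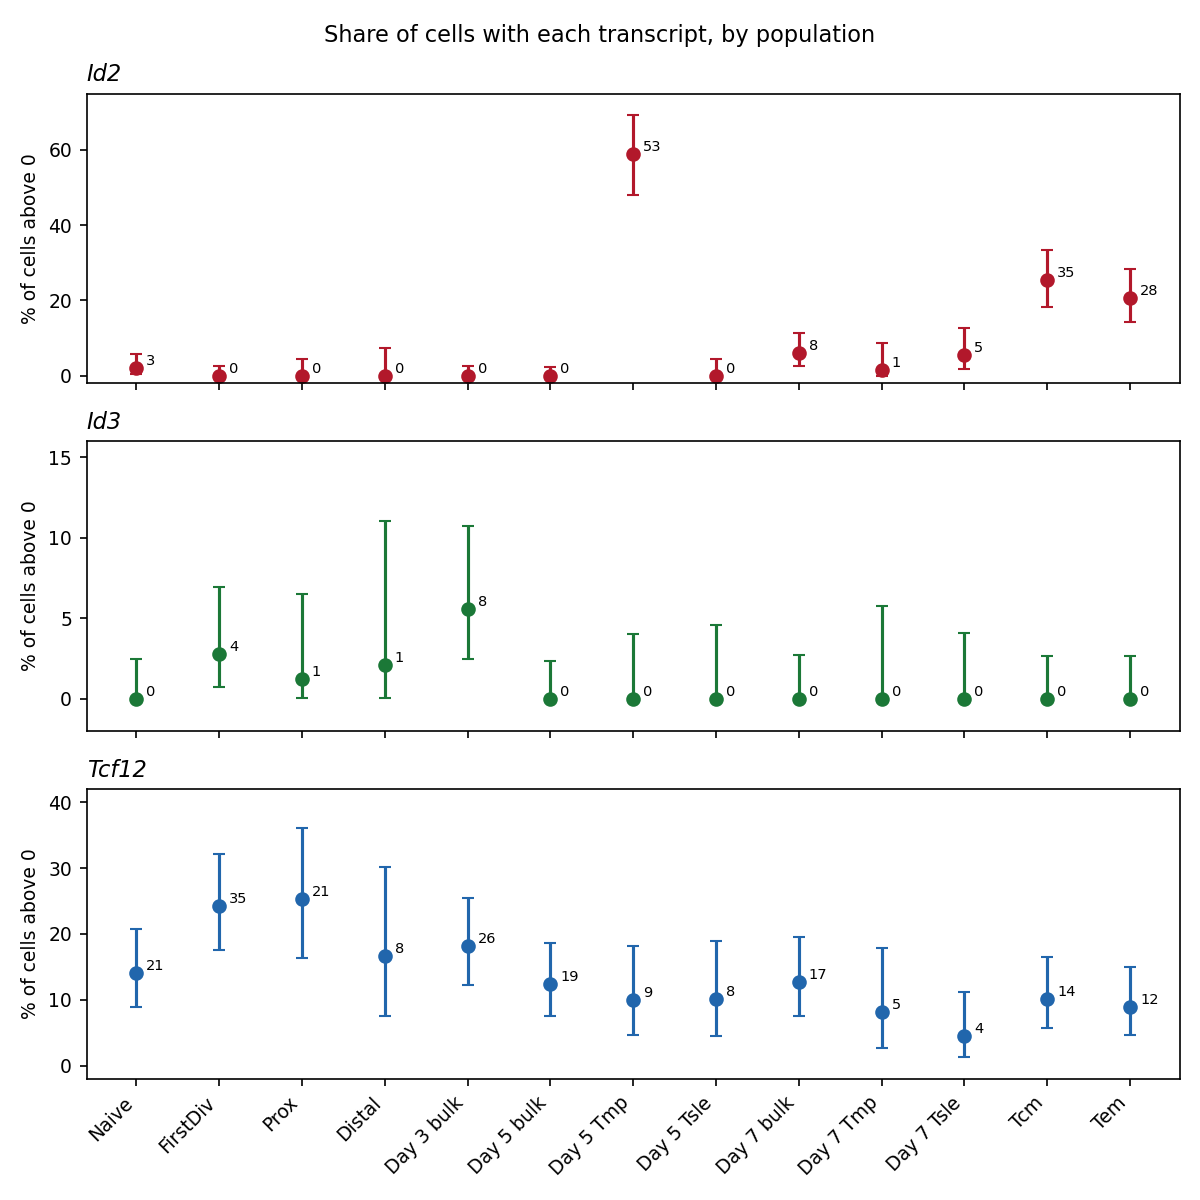
Percent of cells with a value above 0 (vertical axes, each panel with its own scale) for Id2, Id3 and Tcf12 in the 13 populations in time order. Points are shares, bars their exact 95% binomial intervals, and the number beside a point is the count of cells. Id2 stands at 58.9% in day 5 Tmp cells, 25.4% in Tcm and 20.6% in Tem, Id3 is above 0 in 4 populations, and Tcf12 is above 0 in each of the 13.

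Most of this Id2 signal was weak. Of the 133 values, 127 (95.5%) lay at or below 12, which equals a Ct of 28 or later if a value is 40 minus Ct. This was the highest such percentage among the 86 genes found in at least 10 cells, whose median was 7.31%. In Tcf12, by contrast, 4.52% of values lay at or below 12. Id2 exceeded 12 in 6 cells, of which 1 was naive and 5 were Tcm.

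The level of Id2 in the cells that had it differed between populations, in cycles on the log2 scale of the deposited values. The 3 naive values were 4.95, 8.91 and 12.8. Day 5 Tmp values ran from 2.44 to 11.7, with a median of 7.93. Unsorted day 7 cells ran from 1.56 to 5.63 with a median of 3.58, the single day 7 Tmp cell had 2.31, and the day 7 Tsle cells ran from 5.27 to 9.69 with a median of 9.43. Tem values ran from 1.12 to 8.63 with a median of 5.03, against 8.28 to 13.8 with a median of 10.4 in Tcm. The Tem median was 5.34 cycles below that of Tcm, and the ranges overlapped by less than 1 cycle. R18s, the ribosomal RNA used here as a sign of input, had a median of 25.7 in all Tem cells, against 27.3 in all Tcm cells, and Actb, which encodes beta-actin, a median of 17.1, against 21.0. The part of these gaps, which run the same way, was not tested.

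Since so many Id2 values were low, the size calls depended on the detection limit. With a value above 12 required, Id2 was in 0 of 90 day 5 Tmp cells (up to 3.33%) and 5 of 138 Tcm cells (3.62%), and no Id2 comparison reached 20 points. With a value above 8 required, day 5 Tmp cells were 26.4 points above naive cells, and Tcm cells kept all 35 of their positive cells.

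**Figure D2:**
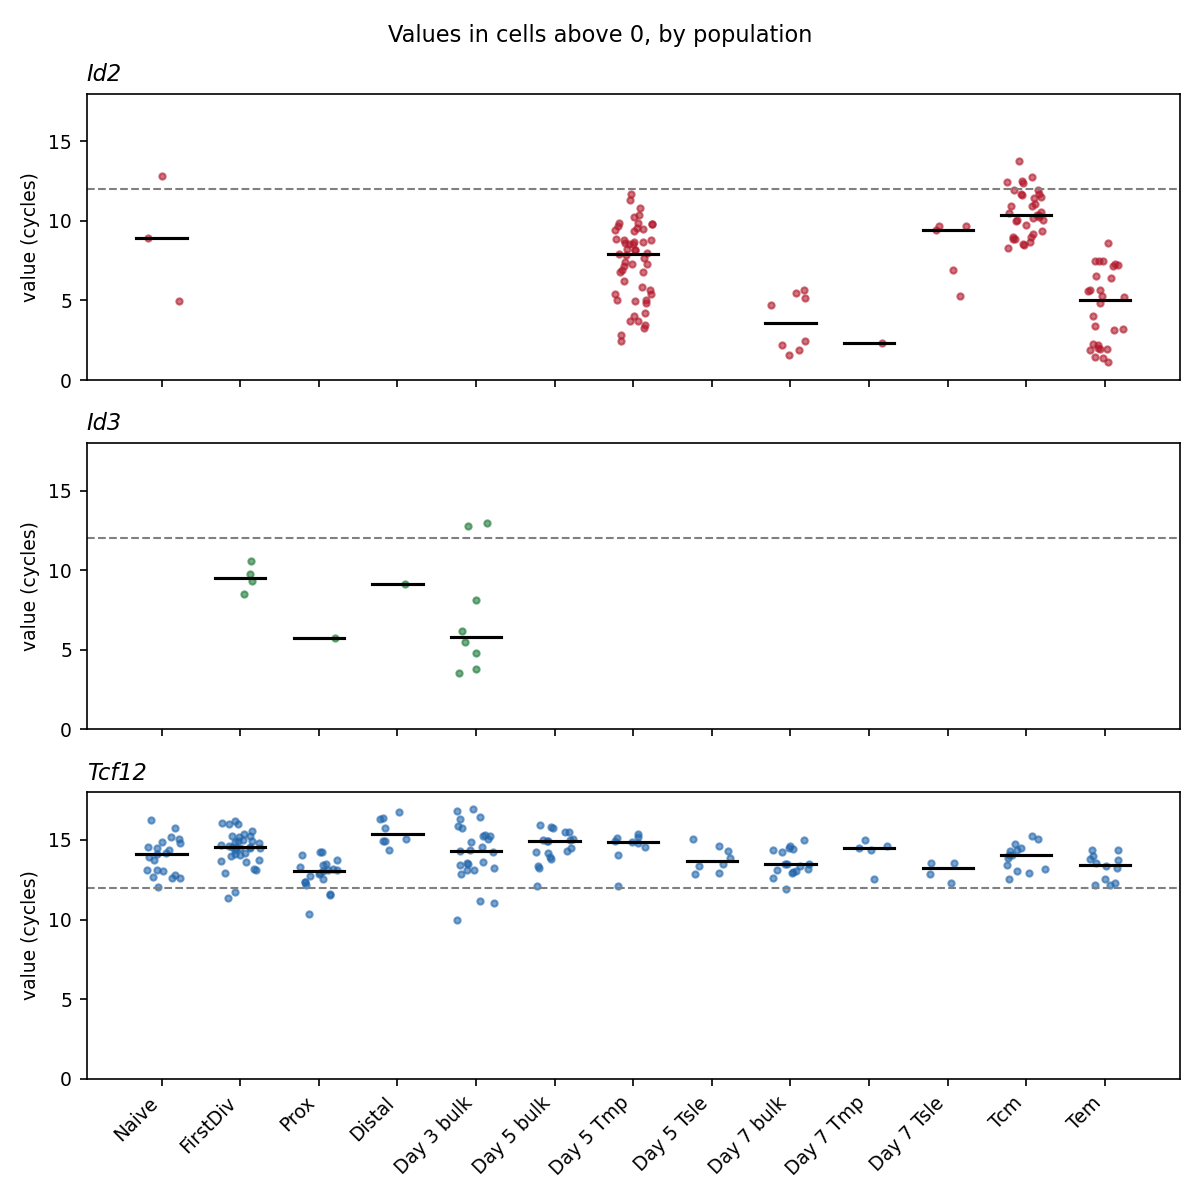
Deposited values in cycles (log2 scale, vertical axes) of Id2, Id3 and Tcf12 in cells above 0. Each point is a cell, the short black line is the median, and the dashed line marks a value of 12. Nearly all Id2 points lie below the dashed line, with medians of 7.93 in day 5 Tmp, 10.4 in Tcm and 5.03 in Tem, while 190 of the 199 Tcf12 points lie above it.

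The cells of a population stand in the file in columns whose order is not explained, and Id2 was absent along long stretches of some of them. In Tcm the first 83 columns held no Id2 (0 of 83), and from column 84 on it was in 63.6% of cells. Splitting each population in the middle gave Id2 in 35 of 69 later Tcm columns (50.7%, 38.4 to 63.0), against 0 of 69 earlier ones (up to 4.35%). That gap of 50.7 points was the largest among the 94 genes in Tcm. The Tcm differences from naive and from day 7 Tmp cells rest on the later columns: using later columns alone they were 46.7 and 50.7 points, and using earlier columns alone 0 and -3.23.

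The point that best divided the columns by the other assays lay close by. The single change point that best divided the Tcm columns by the detection of the 91 other genes fell after column 84. Id2 was in 34 of the 54 cells after it (63.0%), against 1 of the 84 cells before it (1.19%). At this point 5 of the 91 other genes differed by at least 20 points: Rpl35 (24.1% after, 0% before), Il7r (66.7% and 44.0%), Klrc1 (31.5% and 10.7%), Zfp281 (22.2% and 50.0%) and Pdcd1 (0% and 25%). A change point was set in every population, so having one does not show that a break exists. It is placed where the detection of these same genes differs most, which raises the count of genes apart at it, here and in the other populations. The labels do not say what the order of columns stands for.

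Id2 was also found only in later columns of unsorted day 7 and day 7 Tsle cells, at lower shares. Id2 was in 8 of 67 later columns of unsorted day 7 cells (11.9%), against 0 of 67 earlier ones, and in 5 of 45 later columns of day 7 Tsle cells (11.1%), against 0 of 44 earlier ones. Among the 94 genes these gaps ranked 9 and 13 by size, against 1 in Tcm. In the unsorted day 7 cells all 8 lay within the 62 cells after the change point of the other genes, against 0 in the 72 before it. At that point 1 of the 91 other genes differed by at least 20 points. In day 7 Tsle all 5 lay within the 42 after it, against 0 in the 47 before it, and 4 of the 91 other genes differed by at least 20 points.

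The 3 naive cells with Id2 were all among the 75 later columns (4.00%), against 0 of 74 earlier ones. That gap ranked 30 among the 94 genes. Tem went the opposite way, with Id2 in 10 of 68 later columns (14.7%, median value 2.11), against 18 of 68 earlier ones (26.5%, median value 5.65). The sign of the Tem minus Tcm difference followed the columns, at -36.0 points for later and 26.5 points for earlier columns.

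Day 5 Tmp cells held Id2 along the whole stretch. It was in 27 of 45 later columns (60.0%, 44.3 to 74.3), against 26 of 45 earlier ones (57.8%, 42.2 to 72.3), and full bins of 12 consecutive columns held it in 33.3% to 75% of cells. Taking each pairing of earlier or later columns, day 5 Tsle minus day 5 Tmp ran from -60.0 to -57.8 points. At the change point of the other genes, after column 70, Id2 was in 8 of the 20 cells after it (40%), against 45 of the 70 before it (64.3%), with medians of 4.53 and 8.17.

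**Figure D3:**
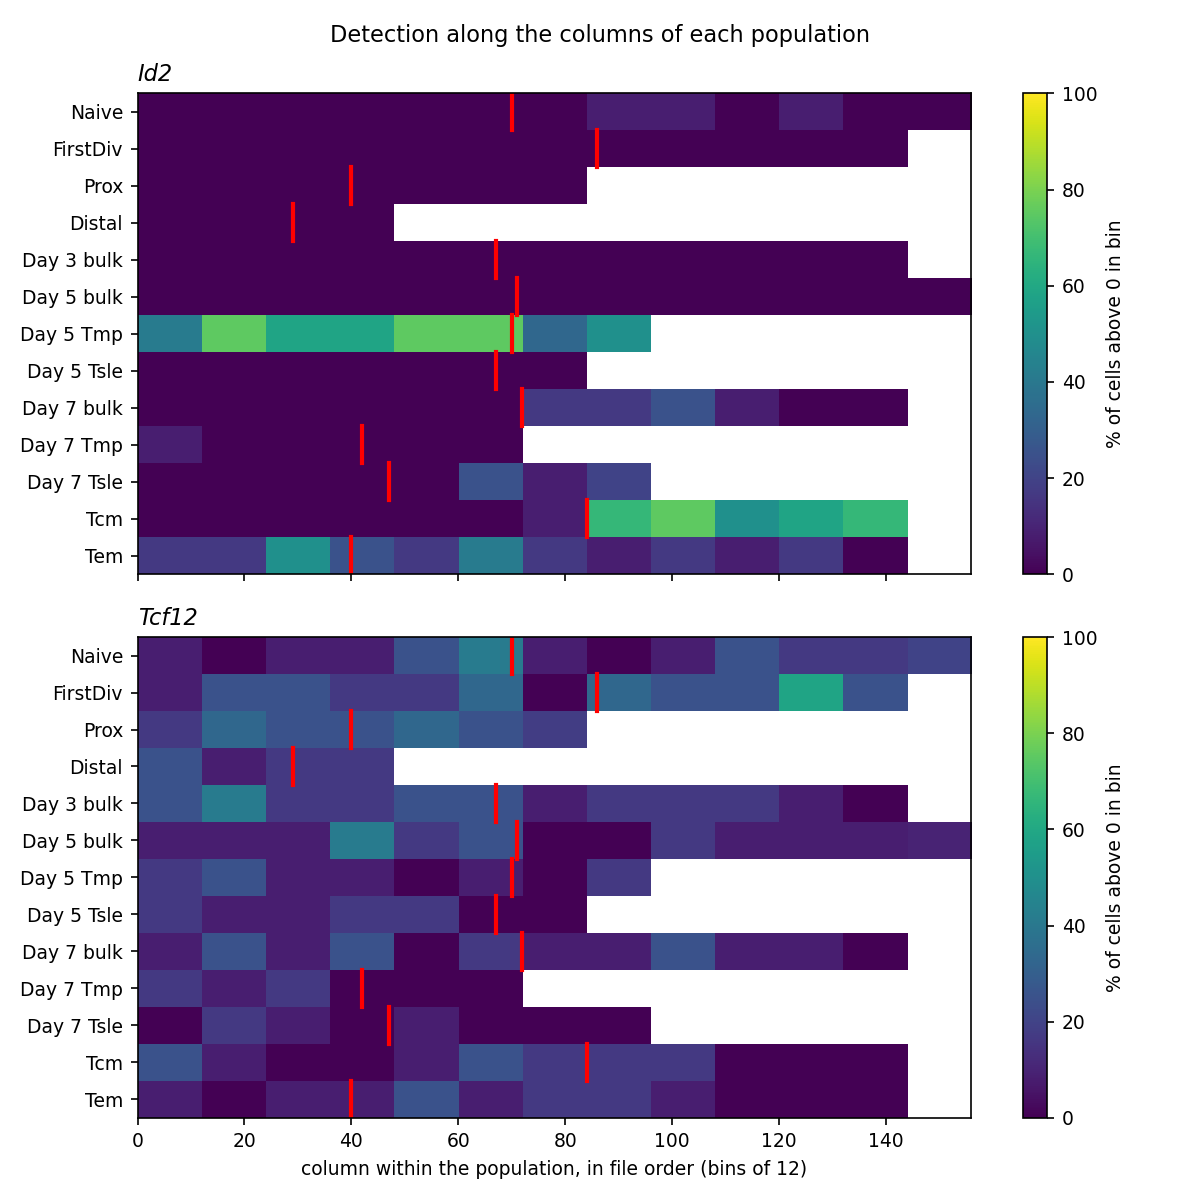
Percent of cells above 0 (colour) in bins of 12 consecutive columns (horizontal axis, file order within a population) for Id2 (top) and Tcf12 (bottom). The last bin of a row may hold fewer cells and is drawn at full width, and the red marks stand at each population's change point in the other 91 genes. Tcm holds Id2 almost entirely to the right of its mark after column 84 (63.0%, against 1.19% to the left), day 5 Tmp holds it throughout, and Tcf12 is spread along most rows.

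Id3 was the rarest of the 3 members. It was found in 14 cells (0.966%, 0.529 to 1.62), all from days 2 and 3. It was in 4 of 144 FirstDiv cells (2.78%, 0.762 to 6.96), 1 of 83 Prox cells (1.20%, 0.0305 to 6.53), 1 of 48 Distal cells (2.08%, 0.0527 to 11.1) and 8 of 143 unsorted day 3 cells (5.59%, 2.45 to 10.7). The 4 intervals overlap one another.

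The remaining 9 populations held no Id3. They include naive cells (0 of 149, up to 2.01%), the memory precursors of day 5 (0 of 90, up to 3.33%) and day 7 (0 of 62, up to 4.84%) and Tcm (0 of 138, up to 2.17%), the populations in which Id3 might be looked for from its known role. Unsorted day 3 cells were 5.59 points above naive cells (1.61 to 10.7). Across the 21 comparisons Id3 differed by between -5.59 and 5.59 points, so none was large.

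The 4 FirstDiv values of Id3 were 8.49, 9.32, 9.76 and 10.6 cycles, the Prox value was 5.74 and the Distal value 9.11. At day 3 the 2 later columns with Id3 had values of 12.8 and 13.0, and the 6 earlier ones ran from 3.54 to 8.10. Only those 2 values of the 14 lay above 12.

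Of the 8 day 3 cells with Id3, 6 lay in the earlier columns. Il2ra, the high-affinity chain of the interleukin-2 receptor, was in 8 of 8 of them, against 64 of the 135 without Id3 (47.4%). The chemokine gene Xcl1 was in 6 of 8, against 27 of 135 (20.0%), and the growth factor gene Myc in 6 of 8, against 59 of 135 (43.7%). Klf2, a factor that keeps T cells quiescent and recirculating, was in 0 of 8, against 54 of 135 (40%). The other genes looked at differed less. With and without Id3, Tcf7 was in 75% and 76.3%, Irf8 in 37.5% and 28.9% and Irf4 in 37.5% and 23.7%. Il2 was in 12.5% and 7.41%, and Tcf12 in 12.5% and 18.5%. How many genes of the whole panel differ as much between these cells is not given, so no gene can be called particular to them. Within the earlier columns alone, Il2ra was in 6 of 6 cells with Id3, against 34 of 65, Xcl1 in 4 of 6, against 18 of 65, Myc in 5 of 6, against 37 of 65, and Klf2 in 0 of 6, against 22 of 65. Myc itself differed along the columns, at 32.9% after the day 3 change point of the other genes, against 59.7% before it. These 8 cells also had more other assays above 0, a median of 23, against 16, and the part of that in these shares was not tested. In FirstDiv the pattern was not seen: Il2ra was in 0 of the 4 cells with Id3, against 65 of 140, and Klf2 in 3 of 4, against 47 of 140. The genes of this comparison were picked with earlier results known, and 8 and 4 cells allow no more than a description.

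Tcf12 was found in every population. It was in 199 of 1449 cells (13.7%, 12 to 15.6), at values from 9.96 to 16.9, and 190 of the 199 lay above 12. In time order its share was 14.1% of naive cells (21 of 149, 8.94 to 20.7), 24.3% of FirstDiv (35 of 144, 17.6 to 32.1), 25.3% of Prox (21 of 83, 16.4 to 36.0) and 16.7% of Distal cells (8 of 48, 7.48 to 30.2). Among unsorted cells the share was 18.2% at day 3 (26 of 143, 12.2 to 25.5) and 12.3% at day 5 (19 of 154, 7.59 to 18.6). FirstDiv and Prox held the highest shares, and their intervals overlap that of naive cells.

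In the sorted cells of day 5 the shares were nearly equal. Tcf12 was in 8 of 79 day 5 Tsle cells (10.1%, 4.47 to 19.0), against 9 of 90 day 5 Tmp cells (10%, 4.68 to 18.1), a difference of 0.127 points (-9.78 to 10.5). It was in 17 of 134 unsorted day 7 cells (12.7%, 7.57 to 19.5). In the sorted day 7 cells it was in 4 of 89 Tsle (4.49%, 1.24 to 11.1), against 5 of 62 Tmp (8.06%, 2.67 to 17.8), a difference of -3.57 points (-13.9 to 4.97). At day 45 it was in 12 of 136 Tem cells (8.82%, 4.64 to 14.9), against 14 of 138 Tcm cells (10.1%, 5.66 to 16.4), a difference of -1.32 points (-8.87 to 6.24).

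From high to low the order of the Tcf12 shares was Prox, FirstDiv, unsorted day 3, Distal, naive, unsorted day 7, unsorted day 5, Tcm, day 5 Tsle, day 5 Tmp, Tem, day 7 Tmp and day 7 Tsle. Neighbours in this order had overlapping intervals, and of the 78 pairs of populations 6 had intervals that lay apart. Relative to naive cells, the differences ran from -9.60 points in day 7 Tsle (-17.0 to -1.21) to 11.2 points in Prox (0.0977 to 23.1), and none reached 20.

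The number of assays found in a cell moved with Tcf12. Over all cells it was in 7.64% of those with under 12 other assays above 0, 11.7% of those with 12 to 18 and 23.1% of those with over 18. Within the 12 to 18 range, a setting chosen after seeing the data, it was in 20.9% of Prox, 19.0% of FirstDiv, 19.0% of Distal and 14.5% of naive cells, and in 6.94% of unsorted day 5 and 3.45% of day 7 Tsle cells. In Distal cells with at least 15 other assays it was in 7 of 12, against 4 of 24 such naive cells, a difference of 41.7 points (4.66 to 70.7). Among such Prox cells it was in 19 of 62 (30.6%). Prox minus Distal was thus -27.7 points in this setting, against 8.63 points over all cells, and it rests on 12 Distal cells. Id2 did not rise with the number of other assays, at 8.46%, 10.9% and 5.99% over the 3 ranges, and Id3 was at 0%, 0.622% and 2.37%.

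**Figure D4:**
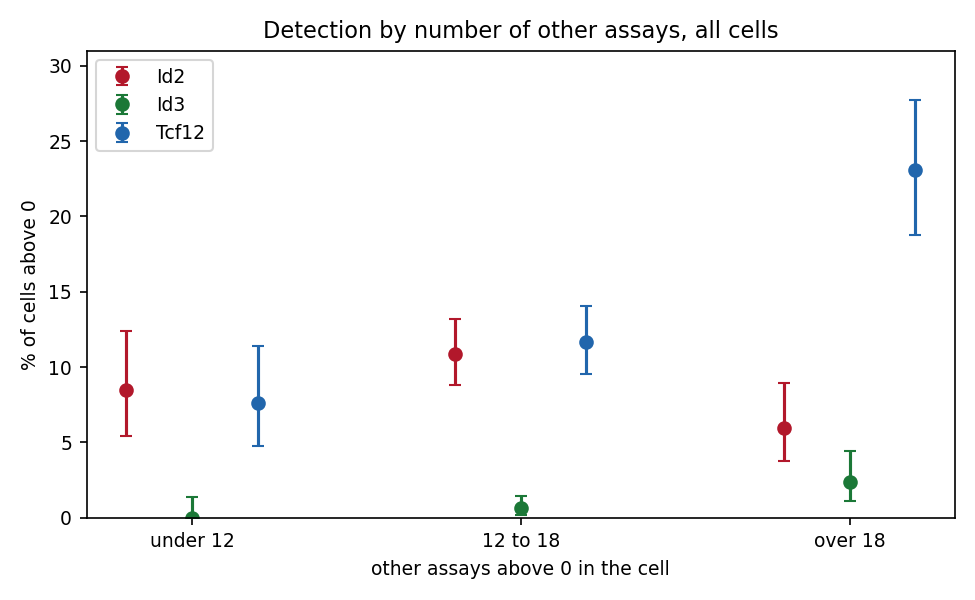
Percent of cells above 0 (vertical axis) for Id2, Id3 and Tcf12 against the number of other assays above 0 in the same cell (horizontal axis, 3 ranges), over all 1449 cells. Points are shares and bars exact 95% binomial intervals. Tcf12 stands at 7.64%, 11.7% and 23.1%, and Id2 at 8.46%, 10.9% and 5.99%.

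The level of Tcf12 in the cells that had it was steadier than that of Id2. Population medians lay between 13.1 and 15.4 cycles. The lowest was in Prox, whose 21 values ran from 10.3 to 14.3 with a median of 13.1, against 14.4 to 16.7 with a median of 15.4 in the 8 Distal cells. The ranges did not overlap, and the medians were 2.34 cycles apart. This was not particular to Tcf12: of 33 genes found in at least 5 cells of each daughter population, the values of 4 (12.1%) did not overlap, each lower in Prox. The median difference over the 33 was -1.79 cycles, and 14 of them were at least 2 cycles lower in Prox, against 0 higher. Actb did not follow, with a median of 20.0 in Prox, against 18.2 in Distal, nor did R18s, with 26.1 against 25.2.

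The column split also touched Tcf12, less than Id2. Its share was higher in earlier columns in 9 populations, higher in later ones in 2 and equal in 2. The widest gap was at day 3, at 11.1% of later columns, against 25.4% of earlier ones, -14.2 points. There the values also moved, with a median of 16.1 in later columns, against 13.5 in earlier ones. In FirstDiv the 58 cells after the change point of the other genes held Tcf12 in 34.5%, against 17.4% of the 86 before it, where 11 of the 91 other genes differed by at least 20 points.

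**Figure D5:**
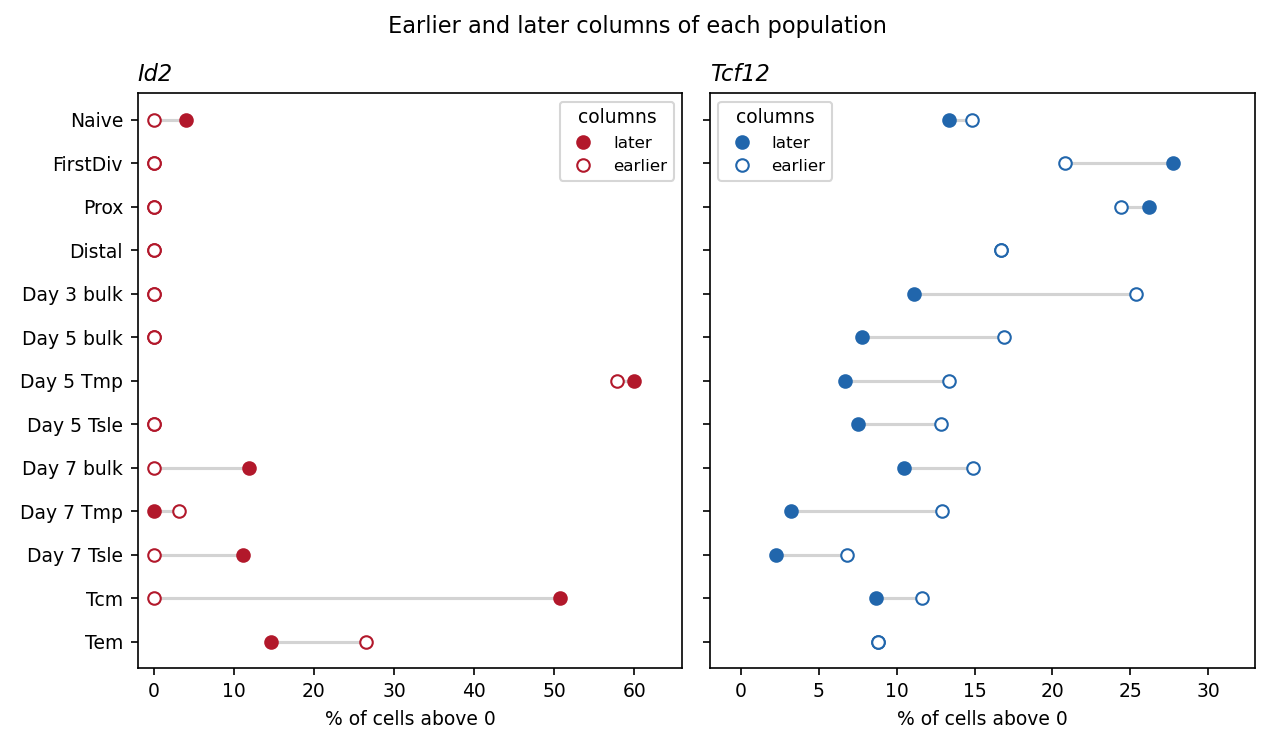
Percent of cells above 0 (horizontal axes) in the later (filled) and earlier (open) columns of each population, for Id2 (left) and Tcf12 (right). Id2 in Tcm stands at 50.7% in later columns and 0% in earlier ones, while day 5 Tmp has 60.0% and 57.8%, and for Tcf12 the widest gap is at day 3, 11.1% and 25.4%.

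Read against the whole panel, the members account for few of the large differences. Over the 21 comparisons Id2 was called in 4, Id3 in 0 and Tcf12 in 0, and 17 comparisons held no call among them. Id2 was called in day 5 Tmp against naive, where 12.8% of the 94 genes were, in Tcm against naive (11.7%), in Tcm against day 7 Tmp (6.38%) and in day 5 Tsle against day 5 Tmp (5.32%). Among the comparisons with naive cells that held no member, the panel had 13.8% of genes called in FirstDiv, 18.1% in Prox, 8.51% in Distal, 12.8% at day 3 and 17% at day 5. The same share was 17% in day 5 Tsle, 13.8% in unsorted day 7, 13.8% in day 7 Tmp, 12.8% in day 7 Tsle and 10.6% in Tem. For pairs without naive cells it was 5.32% in day 3 against FirstDiv, 22.3% in day 5 against day 3 and 5.32% in day 7 against day 5, all unsorted. It was 5.32% in Tem against day 7 Tsle, 8.51% in Prox against Distal, 5.32% in day 7 Tsle against day 7 Tmp and 12.8% in Tem against Tcm. With naive cells shared by 12 of these comparisons, their calls are not independent of one another.

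Finding 2 members in a cell was uncommon. None of the members was found in 1122 cells, 1 in 308, 2 in 19 and all 3 in 0. Id2 and Tcf12 were together in 16 cells, and the products of their shares would give 18.3 over all cells and 13.1 when summed within populations. The 16 lies between these values. Id3 and Tcf12 were together in 3 cells, 2 of FirstDiv and 1 of day 3, and Id2 and Id3 in 0. The absence of Id2 and Id3 together follows from their populations, since apart from the day 2 and 3 populations no cell had Id3, and there no cell had Id2.

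Where Id2 was common, Tcf12 was at least as frequent in cells with it as in cells without it, with wide intervals. In day 5 Tmp, Tcf12 was in 7 of 53 cells with Id2 (13.2%), against 2 of 37 without it (5.41%), a difference of 7.80 points (-7.14 to 20.8). In Tcm it was in 4 of 35 (11.4%), against 10 of 103 (9.71%), a difference of 1.72 points (-9.36 to 17.8), and within the later columns in 4 of 35, against 2 of 34, a difference of 5.55 points (-10.5 to 21.7). In Tem it was in 5 of 28 (17.9%), against 7 of 108 (6.48%), a difference of 11.4 points (-2.05 to 30.8). The Tem difference was 36.6 points in later columns (4 of 10, against 2 of 58) and -4.44 points in earlier ones (1 of 18, against 5 of 50). All 3 intervals over whole populations hold 0.

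Genes linked with either side of the Id and E protein balance were then set against Id2, from lists of 11 memory-side genes (9 measured) and 11 effector-side genes (11 measured). Zeb2, a transcriptional repressor that promotes terminal effector cells, was in 2 of 28 Tem cells with Id2 (7.14%), against 31 of 108 without it (28.7%), a difference of -21.6 points (-32.9 to -3.22). Zeb2 was lower with Id2 in later Tem columns (0 of 10, against 15 of 58) and in earlier ones (2 of 18, against 16 of 50). Of 93 other genes in Tem, 1.08% differed by at least 20 points. In day 5 Tmp, Zeb2 was in 4 of 53 cells with Id2 (7.55%), against 10 of 37 without it (27.0%), -19.5 points (-37.4 to -2.48), under the size rule, which 2.15% of 93 genes and none of the 23 list genes passed there (0 of 23). The lists were mixed in day 5 Tmp: Lef1, the partner of TCF-1, was in 2 of 53 cells with Id2, against 7 of 37 without it (-15.1 points, -31.7 to -0.837). Cxcr3 was in 31 of 53, against 15 of 37 (18.0 points, -4.58 to 38.6). For day 5 Tmp, these 3 genes were chosen after their values were seen. Tcm did not share this: Zeb2 was in 5 of 35 cells with Id2 (14.3%), against 6 of 103 without it (5.83%).

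Il7r, the interleukin-7 receptor that keeps memory cells alive, went with Id2 in Tcm. Within the later columns, where all the Id2 was, it was in 27 of 35 cells with Id2 (77.1%), against 16 of 34 without it (47.1%), a difference of 30.1 points (5.27 to 51.4). In that set 3.23% of 93 genes differed by at least 20 points. The later columns follow 69 earlier ones, so they start before the change point after column 84. Across that point Il7r went from 44.0% to 66.7% and Id2 from 1.19% to 63.0%. The part of this column difference in the 30.1 points was not tested. Tem as a whole did not show Il7r going with Id2, with Il7r in 2 of 28 cells with Id2 (7.14%), against 19 of 108 (17.6%). There the sign differed between columns. In the earlier Tem columns Il7r was in 0 of 18, against 13 of 50. In the later ones it was in 2 of 10, against 6 of 58, a difference of 9.66 points (-10.9 to 45.8). Over the 23 other genes of the 3 lists, the median difference with Id2 was 0.459 points in day 5 Tmp, 0 in later Tcm columns and -0.926 in Tem, beside 0 over the 93 genes in each. Cells with and without Id2 had like numbers of other assays, with medians of 15 and 15 in day 5 Tmp, 16 and 16.5 in later Tcm columns and 11 and 10 in Tem.

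For Tcf12, every gene at least 20 points apart in FirstDiv and Prox was higher in cells with it. In FirstDiv, Irf8, an interferon regulatory factor induced by activation, was in 17 of 35 cells with Tcf12 (48.6%), against 26 of 109 without it (23.9%), a difference of 24.7 points (5.26 to 43.8), and 2.15% of the 93 other genes reached 20 points. In Prox, Foxo1, a forkhead factor of quiescent and memory cells, was in 11 of 21 (52.4%), against 13 of 62 (21.0%), and the chemokine receptor gene Cxcr3 in 15 of 21 (71.4%), against 25 of 62 (40.3%), where 5.38% of genes reached 20 points, all higher with Tcf12. Cells with Tcf12 also had more other assays above 0, a median of 20, against 17, in FirstDiv and 21, against 17, in Prox. The part of this in the shares was not tested.

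Over the 13 populations, the genes whose shares ranked most like those of each member were found among 80 of the 86 genes above 0 in at least 10 cells. For Id2 they were Il7r (Spearman rho 0.66), the chemokine gene Ccl5 (0.61) and the inhibitory receptor gene Pdcd1 (0.45), beside a median of -0.23 over the 80. By mean level the rho was 0.63 for Il7r (rank 1), 0.32 for Ccl5 (rank 10) and 0.39 for Pdcd1 (rank 8). Over 26 sets of earlier or later columns it was 0.56 for Il7r (rank 1), 0.35 for Ccl5 (rank 2) and 0.22 for Pdcd1 (rank 9). Ccl5 was in 1.34% of naive cells and in 74.4% of day 5 Tmp, 100% of Tcm and 99.3% of Tem cells, but also in 94.9% of day 5 Tsle cells, where Id2 was at 0. Pdcd1 exceeded 2% only in Tcm (15.2%), where it was found before the change point of the other genes, in columns that held 1 of the 35 cells with Id2.

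For Id3 they were Il2 (0.85), Cxcl10 (0.84) and Xcl1 (0.84), beside a median of 0.23. These cytokine and chemokine genes were found mainly at days 2 and 3, with Il2 at most at 7.69% and Xcl1 at 23.1% of day 3 cells. The Id3 likenesses depended on the measure: by mean level the rho was 0.63 for Il2, 0.34 for Cxcl10 (rank 24 of 80) and 0.24 for Xcl1 (rank 33). Over 26 sets of earlier or later columns Il2 ranked 11, at 0.61. For Tcf12 they were Zfp281 (0.91), a zinc finger factor gene, the lymph node homing receptor gene Ccr7 (0.85) and the costimulatory receptor gene Tnfrsf9 (0.85), beside a median of 0.36. Zfp281 was in 45.6% of naive, 75.9% of Prox and 19.1% of Tem cells. With the median number of assays per cell over the same 13 populations, the rho of the Tcf12 shares was 0.41, that of the Id2 shares -0.37 and that of the Id3 shares 0.16. These are descriptions over populations that share a panel and differ in depth.

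Tcf3, the other E protein gene measured, was found in 10 cells (0.690%, 0.331 to 1.27), 2 of them naive, 3 FirstDiv, 1 day 3 and 4 unsorted day 7 cells. Its count was of the order of that of Id3, so of the E protein genes Tcf12 alone was found often enough to be described by population.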

How the data were processed

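Per the labels' protocols, transcripts of sorted single cells were reverse transcribed and preamplified by 18 cycles with all TaqMan assays in a pool. After a 5-fold dilution each assay was read on a Fluidigm BioMark array. The deposited table holds 95 assay rows (Il2 in 2 of them) and 1449 cells. Its log2 values, as deposited, are called Ct and not normalized in the labels, but the most abundant transcripts have the highest values, so a value is taken to be 40 minus Ct, with the 40 inferred from the data. RefSeq names were found by accession for 93 rows.

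From it were computed shares of cells above 0 with exact intervals, medians of cells above 0, co-detection, bins of 12 columns, a change point per population from the 91 other genes, and 21 comparisons by size (20 points). Alternatives were earlier or later columns, limits of 8 and 12, cells with at least 10 or 15 other assays, size rules of 10 and 30 points, and mean level above 12 with a rule of 1 cycle, plain or centred on Actb and Gapdh. Cells with 12 to 18 other assays were added after seeing the data. Precision is set by 48 to 154 cells per population, and a count of 0 allows a share of up to 1.95% to 6.25%.

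The members and lists were chosen with earlier results of these data known. Named are the members, the 3 genes most like each, and list genes at least 20 points apart. The other genes named at the Tcm change point or among the cells with Id3 were chosen after their values were seen. Simulated data with known shares were used to test the scripts. Computations used scipy 1.17.1 and numpy 2.4.6 under Python 3.11.15, and figures matplotlib 3.10.9.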

Additional observations from a re-analysis of the deposited data

Results flagged for a closer look

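The difference between Tsle and Tmp cells had another sign at day 7 than at day 5 for Id2 and Tcf12, but the large value was that of Id2 at day 5. For Id2 it was -58.9 percentage points at day 5 and 4.01 points at day 7 (-3.99 to 11.2), where the pairings of earlier and later columns ran from -3.23 to 11.1. For Tcf12 it was 0.127 points at day 5 and -3.57 points at day 7, each with an interval that holds 0 and pairings of both signs, so it gives no direction. With 1 sample per population the change between days was not tested.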

How the results depend on the processing

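With a value above 12 required, the number of populations at least 20 points from naive cells in Id2 was 0 in place of 2, and the 4 Id2 differences called were -0.671 points for day 5 Tmp minus naive, 2.95 for Tcm minus naive, 3.62 for Tcm minus day 7 Tmp and 0 for day 5 Tsle minus day 5 Tmp. With a value above 8, day 5 Tmp minus naive was 26.4 and day 5 Tsle minus day 5 Tmp -27.8 points. On later columns Tcm minus naive was 46.7 and Tcm minus day 7 Tmp 50.7 points, on earlier columns 0 and -3.23. As mean levels in cycles the 4 were -0.00566, 0.0222, 0.0278 and 0, and centred on Actb and Gapdh -0.99, -0.50, -0.82 and -0.86, where centring also moves undetected cells. A rule of 30 points left 1 population for Id2, a rule of 10 points gave 2 for Tcf12, and cells with at least 15 other assays gave 1 for Tcf12, Distal. For the limits and the column splits the construction shows the source of the change, since most Id2 values are below 12 and Tcm has Id2 in later columns. The plain mean level counts only the part of a value above 12, so it applies the limit of 12 again. The centred one subtracts each population's mean of Actb and Gapdh from it, so its differences also hold those of these 2 genes. For the remaining settings the cause was not tested. Of the 59 member differences under 20 points, 10 of 413 alternative values reached 20 points (8 of them Id2 in Tem against naive, day 7 Tsle or Tcm) and 386 lay within the interval of the reported value. The other values that reached 20 points were of Tcf12 in cells with at least 15 other assays. They were 41.7 points for Distal minus naive and -27.7 points for Prox minus Distal. Of the 18 alternative likeness values, 11 lay within 0.2 of those reported. No paired analysis was possible because the labels give 1 sample per population and no replicate numbers. The number of cells limits what can be said of Id3, found in 14.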

Other observations

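The E protein gene Tcf3 held the highest value of the whole table, 35.0 cycles in a FirstDiv cell, and a value of 27.3 in an unsorted day 7 cell. R18s, the ribosomal RNA, stood at 29.4 and 29.98 in the same cells. The other 8 Tcf3 values ran from 3.57 to 16.5. These cells were picked after their values were seen.

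Unsorted cells need not lie between the sorted populations of the same day. At day 5 the unsorted cells had a share outside the range of Tmp and Tsle for 45 of 94 genes, some by a small margin. Mtor, for example, was in 7.79% of unsorted cells, against 7.78% of Tmp and 1.27% of Tsle cells. Id2 was not among the 45, but only because its share was 0 in unsorted as in Tsle cells, against 58.9% of Tmp cells. Its 0 of 154 unsorted cells had an exact upper limit of 2.37%. By contrast, Tcf7 was in 13.6% of unsorted cells, between 0% of Tsle and 38.9% of Tmp cells. Klrg1 was in 14.3%, between 1.11% of Tmp and 40.5% of Tsle cells. Why unsorted cells held no Id2 while Tmp cells did was not tested.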
